A study of Mus musculus with 8 samples.

Results

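The genes of glucose uptake, glycolysis, lactate transport, glycogen turnover and the pentose phosphate pathway were measured in mouse neutrophils recruited to an air pouch under the skin by lipopolysaccharide (LPS), with and without the small GTPase Arf6. The genes were a list of 56, and a gene counted as measured where a probe set carried its symbol alone. Where several probe sets did, the probe set with the highest mean over the 8 arrays was used. By this rule 49 of the 56 genes were measured, of 22180 genes measured in the series, and 44 were bright enough to be tested. Glucose phosphate isomerase Gpi1, enolase Eno1 and glucose-6-phosphate dehydrogenase G6pdx were named by no probe set in the annotation used here. Aldolase Aldoa, Pgm1, Gsk3a and transketolase Tkt were named only by probe sets shared with another gene, and no values are given for these 7.

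The series set out to study Arf6 in relation to glycolytic metabolism and effector functions of neutrophils. Each array held RNA of neutrophils pooled from 5 mice, purified by negative selection. The conditional knockout (cKO, flox+/+Cre+/+) carried the floxed Arf6 allele and Cre and had 3 pools, the flox control (flox+/+Cre-/-) carried the floxed allele without Cre and had 3 pools, and the Cre control (flox-/-Cre+/+) carried Cre without the floxed allele and had 2 pools analysed here. LPS was given to the mice of all 3 groups, so no group shows the genes without that stimulus. The promoter that drives Cre, and the mice's strain, age and sex, are not stated in these sources. Flow cytometry found 98% of the purified cells positive for Ly6G, per the labels, and the neutrophil marker Ly6g read 10.54 to 11.47 (log2) over the arrays.

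Neutrophils have few mitochondria and make most of their ATP by glycolysis, in which glucose taken up by GLUT transporters is phosphorylated by hexokinase, split, and oxidised to pyruvate. Pyruvate is reduced to lactate, which leaves the cell through proton-linked monocarboxylate transporters. Stored glycogen feeds the same path when glucose is scarce in inflamed tissue, and the oxidative pentose phosphate branch makes the NADPH that the phagocyte oxidase turns into superoxide. Many glycolytic genes are known targets of the hypoxia-inducible factor HIF-1.

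Values are log2 probe set intensities. Array medians lay between 5.41 and 5.48, and the median of all values, 5.45, is used below as the mark under which a probe set is called dim. The brightest reading of an array lay between 14.10 and 14.17. Arf6 itself read 6.06 to 6.49 in the cKO arrays and 7.68 to 8.20 in the controls, the order the genotype labels give, while the source field of each sample gives a different genotype. A second, dimmer Arf6 probe set read 6.13 to 6.49 in the cKO and 6.20 to 6.81 in the controls, so its groups overlapped. Flox control replicate 1 and cKO replicate 1 differed from the rest in sex-linked transcripts, with Xist at 5.46 in the former and at least 7.84 elsewhere, and Eif2s3y at 4.08 in the latter and at least 8.66 elsewhere. Precision is limited by having 2 or 3 arrays per group, and the sources do not say whether the pools were collected on the same day.

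No carbohydrate gene passed the threshold of adjusted p 0.05 in any of 4 comparisons, so every difference below is a value with its error and not a call. In the cKO against the mean of both control groups, 28 of the 44 genes tested lay above 0 and 16 below, with a median log2 fold change of 0.09 beside 0.01 over all 14002 probe sets tested. With limma 0 of 44 passed, where 0.00714% of all probe sets did. That share is 1 probe set, which reads the deleted gene Arf6 (adjusted p = 0.0122). Of the 44 genes, 6 had an unadjusted p under 0.05, or 13.6% beside 9.52% of all. These 6 were the lactate transporters Slc16a1 (lower) and Slc16a3 (higher), hexokinase Hk2 (lower), Pgd, Pgm2 and Phkg2 (each higher). The 3 cKO arrays lay outside all 5 control arrays for 1 gene, Phkg2, or 2.27% of the genes beside 4.36% of all probe sets. Without cKO replicate 2 the count of 6 became 1 (Slc16a1), or 2.27% beside 5.35% of all probe sets, and without cKO replicate 3 it became 10, or 22.7% beside 13.8%. Without Cre control replicate 1 it was 2 (Slc16a1 and Pgm2), or 4.55% beside 5.02%, and without Cre control replicate 2 it was 4, or 9.09% beside 8.47%. The median of 0.09 was 0.04 without cKO replicate 2, 0.06 without cKO replicate 1 and 0.14 without cKO replicate 3.

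**Figure D1:**
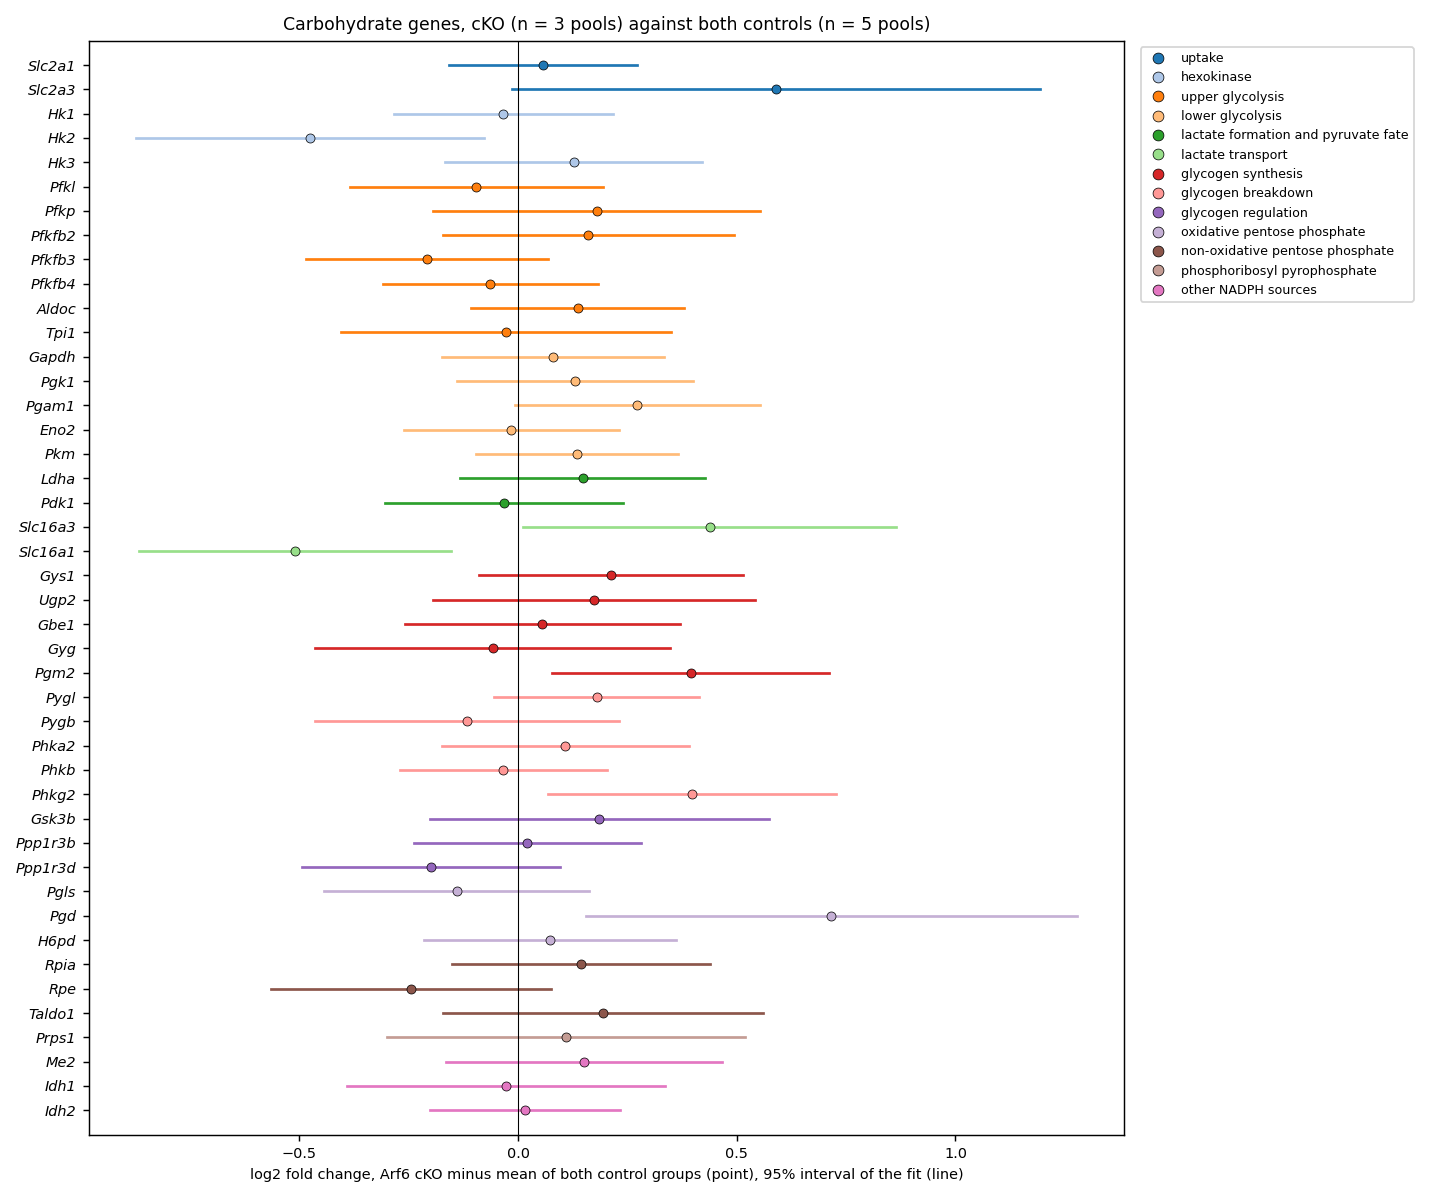
Log2 fold change of each of the 44 genes tested, cKO minus the mean of both control groups (x axis), with genes on the y axis coloured by pathway step and lines for the 95% interval of the limma fit. Pgd stands highest at 0.72 and Slc16a1 lowest at -0.51, and no gene passed after adjustment over all probe sets.

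The list held 2 genes of glucose uptake, and both read lowest in the Cre controls. Slc2a1, the widely expressed transporter GLUT1, read 12.74, 12.86 and 12.84 in flox control pools, 12.86, 12.69 and 12.72 in cKO pools and 12.57 and 12.61 in Cre control pools. The cKO and flox arrays overlapped, and its difference from both controls was 0.06 (SE 0.10, adjusted p = 0.911). A second Slc2a1 probe set, which read dimmer, gave -0.32 (SE 0.13, adjusted p = 0.576) against the flox control and -0.11 (SE 0.12) against both.

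Slc2a3, the high-affinity transporter GLUT3, read 9.99, 10.26 and 10.42 in flox control pools, 10.35, 11.48 and 10.13 in cKO pools and 9.82 and 9.98 in Cre control pools. Its cKO mean was set apart by replicate 2 alone, while replicates 1 and 3 lay within the range of the flox controls. The difference from both controls was 0.59 (SE 0.27, 95% interval -0.01 to 1.19, adjusted p = 0.532), and without cKO replicate 2 it was 0.18 (SE 0.15). Against the Cre control it was 0.75 (SE 0.33, adjusted p = 0.367) and, without that pool, 0.34 (SE 0.18).

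Hexokinase, which traps glucose in the cell, is present as 3 isozymes on the array, and only Hk2 had an unadjusted p under 0.05 in any comparison. Hk2, the inducible isozyme, read 10.13, 10.45 and 10.39 in flox control pools, 9.90, 9.39 and 10.22 in cKO pools and 10.40 and 10.20 in Cre control pools. Replicates 1 and 2 of the cKO lay below all 5 controls, and replicate 3 lay among them. The difference was -0.48 (SE 0.18, adjusted p = 0.443) from both controls, -0.49 (SE 0.20, adjusted p = 0.576) from the flox control and -0.46 (SE 0.22, adjusted p = 0.401) from the Cre control. Without cKO replicate 2 the first was -0.25 (SE 0.15) and the second -0.27 (SE 0.16).

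Hk3, the isozyme typical of myeloid cells, read 9.67, 9.88 and 9.57 in flox control pools, 9.99, 9.88 and 9.76 in cKO pools and 9.58 and 10.01 in Cre control pools. The 3 groups overlapped, and the difference from both controls was 0.13 (SE 0.13). Hk1, which binds to mitochondria, differed by -0.03 (SE 0.11).

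In the upper part of glycolysis 7 of the listed genes were tested, and their differences from both controls ran from -0.21 for Pfkfb3 to 0.18 for Pfkp. Pfkl, the liver-type subunit of phosphofructokinase, read 9.14, 9.45 and 9.39 in flox control pools, 9.15, 9.05 and 8.80 in cKO pools and 9.0 and 8.73 in Cre control pools. Beside the flox control Pfkl differed by -0.32 (SE 0.14, adjusted p = 0.597) in the cKO and by -0.46 (SE 0.16, adjusted p = 0.22) in the Cre control. The cKO and flox arrays overlapped, with cKO replicate 1 just above flox control replicate 1. The platelet-type subunit Pfkp read 0.07 (SE 0.19) above the flox control in the cKO, a difference smaller than its error, and the muscle-type subunit Pfkm was dim on every array.

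Pfkfb3, a bifunctional enzyme that makes an allosteric activator of phosphofructokinase, read 11.43, 11.64 and 11.57 in flox control pools, 11.37, 11.03 and 11.43 in cKO pools and 11.52 and 11.33 in Cre control pools. All cKO arrays lay below the lowest flox control array, replicate 3 by less than 0.01, with cKO replicate 2 the lowest of all, and the difference from the flox control was -0.27 (SE 0.14, adjusted p = 0.656). Its relatives Pfkfb2 and Pfkfb4 differed from both controls by 0.16 (SE 0.15) and -0.06 (SE 0.11), and Pfkfb2 was dim on 2 of the 8 arrays.

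Aldoc, an aldolase isozyme that was dim on 1 array, read 0.14 (SE 0.11) above both controls. Triose phosphate isomerase Tpi1 read 10.07, 9.84 and 9.48 in flox control pools, 9.52, 9.81 and 9.18 in cKO pools and 9.25 and 9.28 in Cre control pools. The Cre control arrays were low and close together, and cKO replicate 3 was the lowest of all while cKO replicate 2 lay within the flox range. The Tpi1 difference was -0.53 (SE 0.21, adjusted p = 0.276) for the Cre control against the flox control and -0.03 (SE 0.17) for the cKO against both.

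The lower part of glycolysis runs from glyceraldehyde phosphate to pyruvate, and 5 of its listed genes were tested. Pgk1, the first enzyme of the path to yield ATP, read 11.17, 11.21 and 10.97 in flox control pools, 10.93, 11.15 and 10.76 in cKO pools and 10.45 and 10.58 in Cre control pools. The cKO overlapped the flox control and lay wholly above the Cre control, with differences of -0.17 (SE 0.13, adjusted p = 0.774) and 0.43 (SE 0.15, adjusted p = 0.26). Between the control groups Pgk1 differed by -0.60 (SE 0.15, 1.52-fold lower in the Cre control, adjusted p = 0.111).

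Pkm, which makes pyruvate, read 12.92, 12.90 and 12.78 in flox control pools, 12.90, 12.97 and 12.74 in cKO pools and 12.52 and 12.68 in Cre control pools. Cre control arrays were again the lowest of the 8, and the cKO differed by 0.27 (SE 0.13, adjusted p = 0.399) from them. Its difference from the flox control was within 0.01, with a 95% interval of -0.25 to 0.26. Eno2, an enolase isozyme known from neurons, differed from both controls by -0.02 (SE 0.11).

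Gapdh read 12.95 to 13.33 over the 8 arrays, with differences of 0.03 (SE 0.13) from the flox control and 0.13 (SE 0.14) from the Cre control. RefSeq places Gapdh on chromosome 6, while the probe sets numbered next to the 3 Gapdh probe sets belong to genes of chromosomes 11, 5 and Y, so these readings may come from near-identical copies of the gene. The Pgam1 probe set with the highest mean has the same limit: its numbered neighbours lie on chromosome 3 and Pgam1 on chromosome 19. This Pgam1 probe set read 9.56, 9.22 and 9.12 in flox control pools, 9.50, 9.52 and 9.28 in cKO pools and 9.04 and 9.02 in Cre control pools, a difference of 0.41 (SE 0.16, adjusted p = 0.3) from the Cre control. The Pgam1 probe set numbered among genes of chromosome 19 gave 0.15 (SE 0.18) there and 0.03 (SE 0.15) against both controls, beside 0.27 (SE 0.13) for the first.

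Lactate formation and the fate of pyruvate were read by 2 genes. Ldha, the lactate dehydrogenase subunit that favours lactate, read 7.24, 6.97 and 7.07 in flox control pools, 6.97, 7.16 and 6.80 in cKO pools and 6.70 and 6.44 in Cre control pools. Its cKO and flox arrays overlapped and all lay above the Cre controls. The Ldha difference was -0.12 (SE 0.14, adjusted p = 0.88) from the flox control, 0.41 (SE 0.16, adjusted p = 0.295) from the Cre control and -0.53 (SE 0.16, adjusted p = 0.158) between the controls. Pdk1, the kinase that shuts pyruvate dehydrogenase, differed from both controls by -0.03 (SE 0.12).

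The lactate transporters differed in the opposite direction from the mean of both control groups, Slc16a1 lower and Slc16a3 higher, and Slc16a3 lay close to the flox control. Slc16a3, the exporter MCT4 of highly glycolytic cells, read 10.72, 11.29 and 11.43 in flox control pools, 11.18, 11.57 and 10.89 in cKO pools and 10.40 and 10.41 in Cre control pools. The cKO and the flox control overlapped and shared a wide range, and both Cre arrays lay below every other array. Slc16a3 differed by 0.44 (SE 0.19, adjusted p = 0.519) from both controls, 0.07 (SE 0.21, adjusted p = 0.96) from the flox control and 0.81 (SE 0.24, 1.75-fold, adjusted p = 0.217) from the Cre control. Without cKO replicate 2 the first of these was 0.26 (SE 0.19). Between the controls the difference was -0.74 (SE 0.24, adjusted p = 0.19).

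Slc16a1, the transporter MCT1, which carries lactate in either direction, read 8.32, 8.62 and 8.10 in flox control pools, 8.11, 7.81 and 8.07 in cKO pools and 8.92 and 8.41 in Cre control pools. The cKO arrays were the lowest but for flox control replicate 3, which lay just below cKO replicate 1. Slc16a1 differed by -0.51 (SE 0.16, 95% interval -0.87 to -0.15, 1.42-fold lower, adjusted p = 0.384) from both controls, -0.35 (SE 0.18, adjusted p = 0.653) from the flox control and -0.67 (SE 0.20, adjusted p = 0.218) from the Cre control. The last of these was -0.41 (SE 0.23) without Cre control replicate 1. Over 18 alternatives the Slc16a1 difference from both controls ran from -0.64 to -0.38. These reuse the same 8 arrays and include a repeat of the main fit, so they are not independent of each other.

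Promoters of the lactate transporters, of Hk2 and of Pgk1 are shown because the first 3 genes were among the 6 above and Pgk1 had the lowest adjusted p of the 44 genes in any comparison, so they were chosen after their values were seen. Each is the RefSeq window of GRCm38.p6 from 250 bases before to 50 after the start, written 5′ to 3′. Capitals mark matches on either strand to ACGTG (the core of the hypoxia response element), CACGTG (the E-box, which holds ACGTG on both strands) and TGACNNNGC (the core of the antioxidant response element). Positions are chr11:120948817-120949116, plus strand for Slc16a3, chr3:104638414-104638713, plus strand for Slc16a1, chr6:82774405-82774704, minus strand for Hk2 and chrX:106186850-106187149, plus strand for Pgk1.
Slc16a3: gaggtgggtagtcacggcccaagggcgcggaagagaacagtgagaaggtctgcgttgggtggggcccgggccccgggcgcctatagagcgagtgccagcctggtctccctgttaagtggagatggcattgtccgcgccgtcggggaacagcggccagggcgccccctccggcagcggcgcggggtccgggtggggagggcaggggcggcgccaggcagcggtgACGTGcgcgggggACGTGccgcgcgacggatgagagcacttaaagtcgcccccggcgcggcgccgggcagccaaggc
Slc16a1: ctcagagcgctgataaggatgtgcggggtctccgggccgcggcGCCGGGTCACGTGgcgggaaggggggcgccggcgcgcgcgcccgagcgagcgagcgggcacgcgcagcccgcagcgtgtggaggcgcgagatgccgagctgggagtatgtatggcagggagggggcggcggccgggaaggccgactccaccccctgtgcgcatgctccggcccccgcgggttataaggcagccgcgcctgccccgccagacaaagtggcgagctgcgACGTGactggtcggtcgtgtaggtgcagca
Hk2: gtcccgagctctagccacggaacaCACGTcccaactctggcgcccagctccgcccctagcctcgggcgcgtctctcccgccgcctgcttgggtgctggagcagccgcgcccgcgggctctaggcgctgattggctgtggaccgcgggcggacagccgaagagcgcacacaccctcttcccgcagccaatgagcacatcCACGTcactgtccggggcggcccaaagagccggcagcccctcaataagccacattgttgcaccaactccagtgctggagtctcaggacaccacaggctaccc
Pgk1: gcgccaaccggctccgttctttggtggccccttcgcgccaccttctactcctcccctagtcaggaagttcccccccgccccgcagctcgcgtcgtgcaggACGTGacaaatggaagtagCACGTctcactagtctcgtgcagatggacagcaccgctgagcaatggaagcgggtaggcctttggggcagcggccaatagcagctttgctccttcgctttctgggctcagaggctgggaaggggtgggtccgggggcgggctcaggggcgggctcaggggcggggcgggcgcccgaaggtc

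The hypoxia core matched 2 times in Slc16a3, 2 times in Hk2, 2 times in Pgk1 and 3 times in Slc16a1, where 1 E-box accounts for a match on each strand and overlaps the antioxidant core. Both lactate transporters hold ACGTG, and only Slc16a1 of them holds the E-box and the antioxidant core. Pgd, Pgm2 and Phkg2 also had an unadjusted p under 0.05 against both controls, and their promoters are not printed. In these ACGTG matched 1 time in Pgm2 and 0 times in Phkg2 and in both windows of Pgd. Of the 56 genes 53 have promoters in the table, 72 windows in all (Slc2a3, Ppp1r3b and Me2 have no entry), and 30 windows, or 41.7%, hold ACGTG beside 19.6% of 32851 promoters of the same length. They belong to 26 genes, among them Slc2a1, all 3 hexokinases, Pfkfb3, Gapdh, Pgam1, Pkm, Ldha and Pygl. Of these, Hk1, Pkm and Ldha also have a window without a match. Genes with no match in any window include Gpi1, Pfkl, Pfkp, Pfkfb4, Tpi1, Eno1, Eno2, Pdk1, Gys1 and Gbe1. The E-box lies in 9.72% of the windows beside 7.15% of all promoters and the antioxidant core in 12.5% beside 12.4%, with Pgd and G6pdx among the genes that hold the latter. A match is a string of letters and no measure of binding.

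**Figure D2:**
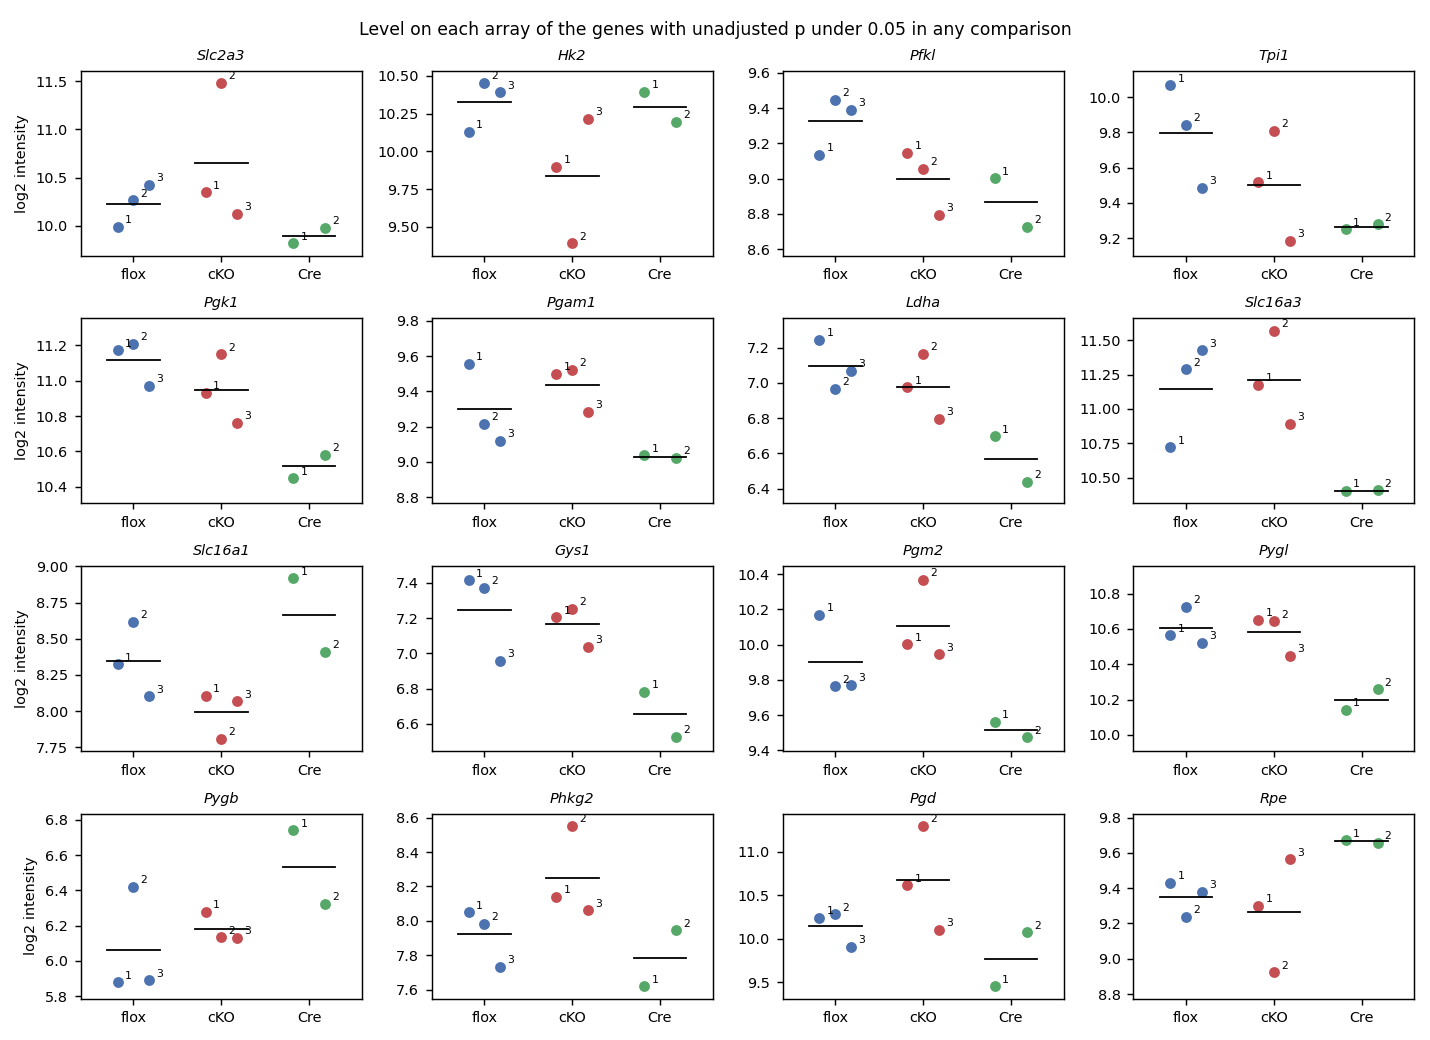
Log2 intensity (y axis) on every array for the 16 genes with an unadjusted p under 0.05 in any comparison, by group (x axis), with pool numbers beside the points and a line at each group mean. In Slc2a3, Pgd, Phkg2, Slc16a3 and Pgm2 cKO replicate 2 is the highest array, at 11.48, 11.29, 8.55, 11.57 and 10.37. Both Cre control arrays lie below all others in Slc2a3, Slc16a3, Pgk1, Pgam1, Ldha, Gys1, Pgm2 and Pygl.

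Among genes listed under glycogen synthesis, 4 of 5 tested lay above both controls and Gyg, the primer protein glycogenin, lay at -0.06 (SE 0.18). The 4 include Pgm2, whose main activity, given below, is not a step of glycogen synthesis. Gys1, the glycogen synthase outside liver, read 7.41, 7.37 and 6.96 in flox control pools, 7.20, 7.25 and 7.04 in cKO pools and 6.78 and 6.53 in Cre control pools. The cKO lay inside the range of the flox control and above the Cre control, with differences of -0.08 (SE 0.15, adjusted p = 0.93) and 0.51 (SE 0.17, adjusted p = 0.249). The controls differed by -0.59 (SE 0.17, adjusted p = 0.141).

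Pgm2, a phosphopentomutase related to phosphoglucomutase, read 10.17, 9.76 and 9.77 in flox control pools, 10.00, 10.37 and 9.94 in cKO pools and 9.56 and 9.47 in Cre control pools. Flox control replicate 1 lay within the cKO range and the other 4 controls below it. Pgm2 differed by 0.39 (SE 0.14, adjusted p = 0.43) from both controls, 0.20 (SE 0.16) from the flox control and 0.59 (SE 0.18, adjusted p = 0.223) from the Cre control. The first of these was 0.26 (SE 0.14) without cKO replicate 2. Ugp2, which makes UDP-glucose, and the branching enzyme Gbe1 differed from both controls by 0.17 (SE 0.16) and 0.06 (SE 0.14).

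Glycogen is broken down by phosphorylase, which phosphorylase kinase switches on. Pygl, the phosphorylase isozyme of liver and leukocytes, read 10.56, 10.72 and 10.52 in flox control pools, 10.65, 10.64 and 10.45 in cKO pools and 10.14 and 10.26 in Cre control pools. The cKO and flox arrays overlapped and the Cre arrays were the lowest. Pygl differed by -0.02 (SE 0.12, adjusted p = 0.978) from the flox control, 0.38 (SE 0.13, adjusted p = 0.256) from the Cre control and -0.41 (SE 0.13, adjusted p = 0.19) between the controls. Pygb, the brain isozyme, ran the other way between the controls, reading 5.88, 6.42 and 5.89 in flox control pools, 6.28, 6.13 and 6.13 in cKO pools and 6.74 and 6.32 in Cre control pools. That difference was 0.47 (SE 0.19, adjusted p = 0.298), with flox control replicate 2 above Cre control replicate 2, and it was 0.26 (SE 0.23) without Cre control replicate 1.

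Phkg2, the catalytic subunit of phosphorylase kinase in liver and other tissues, read 8.05, 7.98 and 7.73 in flox control pools, 8.14, 8.55 and 8.06 in cKO pools and 7.62 and 7.94 in Cre control pools. All 3 cKO arrays lay above all 5 controls, though the gap between cKO replicate 3 and flox control replicate 1 was narrow. Its differences were 0.40 (SE 0.15, adjusted p = 0.438) from both controls, 0.33 (SE 0.16, adjusted p = 0.653) from the flox control and 0.47 (SE 0.18, adjusted p = 0.307) from the Cre control. Without cKO replicate 2 the difference from both controls was 0.25 (SE 0.14), and without Cre control replicate 1 that from the Cre control was 0.31 (SE 0.23). The regulatory subunits Phka2 and Phkb differed by 0.11 (SE 0.13) and -0.03 (SE 0.11), and Phka1 was dim on every array.

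Regulators of glycogen synthase showed small differences. The kinase Gsk3b differed from both controls by 0.19 (SE 0.17), and the glycogen-targeting subunits of protein phosphatase 1, Ppp1r3b and Ppp1r3d, by 0.02 (SE 0.12) and -0.20 (SE 0.13). A second Ppp1r3b probe set gave -0.10 (SE 0.17). Epm2a, the glycogen phosphatase laforin, was dim on every array.

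In the oxidative pentose phosphate branch, Pgd lay further above the controls than any other of the 44 genes in each of the 3 comparisons of the cKO. Pgd, which yields NADPH in the second oxidative step, read 10.24, 10.28 and 9.91 in flox control pools, 10.61, 11.29 and 10.10 in cKO pools and 9.46 and 10.07 in Cre control pools. Replicates 1 and 2 of the cKO lay above all controls and replicate 3 among them. Pgd differed by 0.72 (SE 0.25, 95% interval 0.15 to 1.28, 1.64-fold, adjusted p = 0.423) from both controls, 0.53 (SE 0.28, adjusted p = 0.674) from the flox control and 0.91 (SE 0.31, adjusted p = 0.259) from the Cre control. Without cKO replicate 2 the first was 0.40 (SE 0.21). The last was 0.59 (SE 0.25) without that pool and 0.60 (SE 0.39) without Cre control replicate 1. Pgls, which opens the lactone made by glucose-6-phosphate dehydrogenase, read -0.14 (SE 0.14) from both controls with one probe set and 0.13 (SE 0.13) with the other, and H6pd, which runs the first oxidative steps inside the endoplasmic reticulum, read 0.07 (SE 0.13).

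In the non-oxidative branch, the epimerase Rpe read 9.43, 9.24 and 9.38 in flox control pools, 9.30, 8.92 and 9.56 in cKO pools and 9.67 and 9.66 in Cre control pools. The Cre control arrays were the highest, and the cKO spread beyond the flox control on both sides. Rpe differed by -0.40 (SE 0.18, adjusted p = 0.364) between the cKO and the Cre control, and by -0.23 (SE 0.15) without cKO replicate 2. The isomerase Rpia and transaldolase Taldo1 differed from both controls by 0.14 (SE 0.13) and 0.19 (SE 0.16), and Prps1, which uses ribose phosphate for nucleotide synthesis, by 0.11 (SE 0.18). Its relative Prps2 was dim on every array.

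Other NADPH sources stayed close to the controls in value. The mitochondrial malic enzyme Me2 differed by 0.15 (SE 0.14), cytosolic isocitrate dehydrogenase Idh1 by -0.03 (SE 0.16) and the mitochondrial Idh2 by 0.02 (SE 0.10), where Idh2 was dim on 1 array. The cytosolic malic enzyme Me1 was dim on every array.

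**Figure D3:**
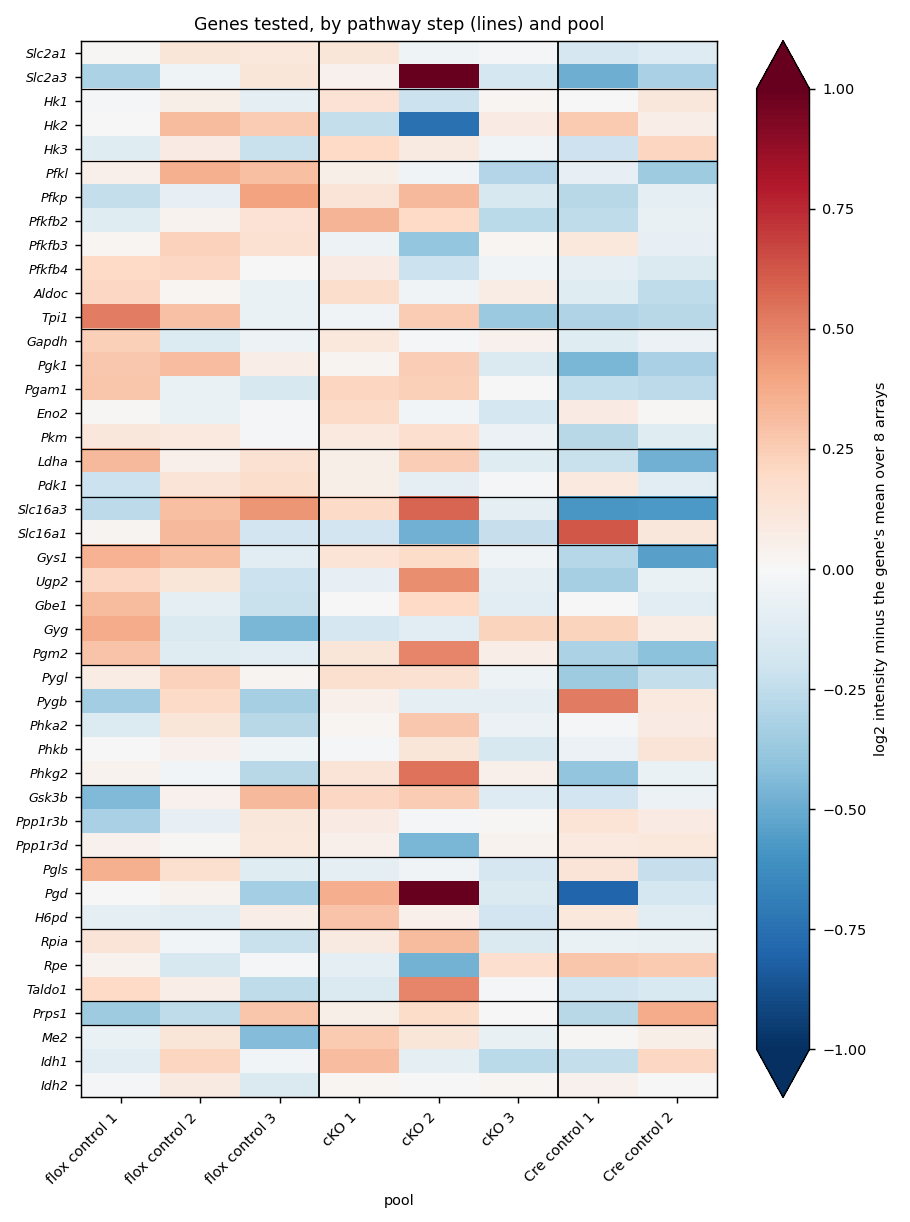
Log2 intensity of each of the 44 genes tested on each pool minus the gene's mean over the 8 arrays (colour), with pools on the x axis, genes on the y axis and lines between pathway steps. Colour ends at 1 unit on either side, which Slc2a3 and Pgd pass in cKO replicate 2, and the Cre control pools have the lowest medians over the genes, -0.12 and -0.08.

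Across the 8 pools the genes did not move as a block. The median over the 44 genes of the level minus its 8-array mean was 0.02, 0.06 and -0.03 in flox control pools, 0.08, 0.12 and -0.06 in cKO pools and -0.12 and -0.08 in Cre control pools, beside values between -0.02 and 0.02 over all probe sets tested. Replicates 1 and 2 of the cKO read above the gene means and cKO replicate 3 below them, so the cKO pools straddled the flox controls. In turn, cKO replicate 2 held the highest array for 10 genes and the lowest for 7, or 22.7% and 15.9% beside 15.3% and 14.2% of all probe sets. By contrast, cKO replicate 3 held the highest array for 0 genes, beside 5.56% of all probe sets, and Cre control replicate 1 the lowest for 10, or 22.7% beside 17.7%.

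Against the flox control, which carries the same allele, 27 of 44 genes lay above 0 and 17 below (median 0.03, beside 0.01 over all probe sets). Leaving out 1 pool turned the sign of this median, to -0.03 when flox control replicate 3 was dropped and to -0.01 when cKO replicate 1 was, and it was 0.07 without cKO replicate 3. It lay nearer 0 without flox control replicate 1 (0.01) and cKO replicate 2 (0.0027). By limma 0 passed, where 0.0429% of all probe sets did, and 2 had an unadjusted p under 0.05, Hk2 and Pfkl, each lower. That is 4.55% of the genes beside 8.26% of all probe sets. Groups did not overlap for 2 genes, Pfkfb3 (lower) and Phkg2 (higher), or 4.55% beside 12.2% of all. Dropping flox control replicate 2 turned the count of 2 into 0, where 7.89% of all probe sets had such a p. It became 5 without cKO replicate 3 (Slc2a3, Hk2, Pfkfb3, Phkg2 and Pgd), or 11.4% beside 11.1% of all. It was 1, or 2.27%, without cKO replicate 1, cKO replicate 2 or either Cre control, beside 5.35% to 6.82% of all.

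Against the Cre control, 29 of 44 genes lay above 0 and 15 below (median 0.11, beside 0.01 over all). The median was 0.16 without cKO replicate 3 and 0.18 without Cre control replicate 2. By limma 0 passed, where 0.0714% of all probe sets did, and 12 had an unadjusted p under 0.05, or 27.3% beside 13.5% of all. Higher in the cKO among these were Slc2a3, Pgk1, Pgam1, Ldha, Slc16a3, Gys1, Pgm2, Pygl, Phkg2 and Pgd, and lower were Slc16a1 and Rpe. For 20 genes, or 45.5%, the groups did not overlap, beside 34.4% of all probe sets in this comparison of 3 with 2 arrays. The count of 12 was 6 without cKO replicate 2, or 13.6% beside 9.41% of all probe sets, and 4 without Cre control replicate 1 (Ldha, Slc16a3, Gys1 and Pgm2), or 9.09% beside 5.44%. It was 7 without Cre control replicate 2, or 15.9% beside 9.84%.

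The control groups were compared with each other in the same fit, Cre control minus flox control, and 29 of 44 genes lay below 0 (median -0.12, beside a median within 0.01 of 0 over all). By limma 0 passed, where 0.486% of all probe sets did, and 8 had an unadjusted p under 0.05, or 18.2% beside 14.7%. They were Pfkl, Tpi1, Pgk1, Ldha, Slc16a3, Gys1 and Pygl, each lower in the Cre control, and Pygb, higher. Groups did not overlap for 15 genes, or 34.1%, beside 32.7% of all. The count was 4 without Cre control replicate 1, or 9.09% beside 8.24% of all, and 5 without Cre control replicate 2, or 11.4% beside 9.54%. With array weights, which count pools that stray from the model less, Pgk1, Slc16a3, Gys1 and Pygl passed, with adjusted p of 0.0186, 0.0262, 0.0255 and 0.0402 by limma, 4 of 44 or 9.09% beside 5.85% of all probe sets. All 7 genes tested of the upper part of glycolysis lay below 0 here, from -0.53 for Tpi1 to -0.13 for Pfkfb3, beside 7107 of all 14002 probe sets. Only Pfkl and Tpi1 of the 7 had an unadjusted p under 0.05, and Pfkfb2 and Aldoc were each dim on a Cre control array. The 2 comparisons with the Cre control use the same 2 arrays, so their values for a gene are not independent of each other.

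**Figure D4:**
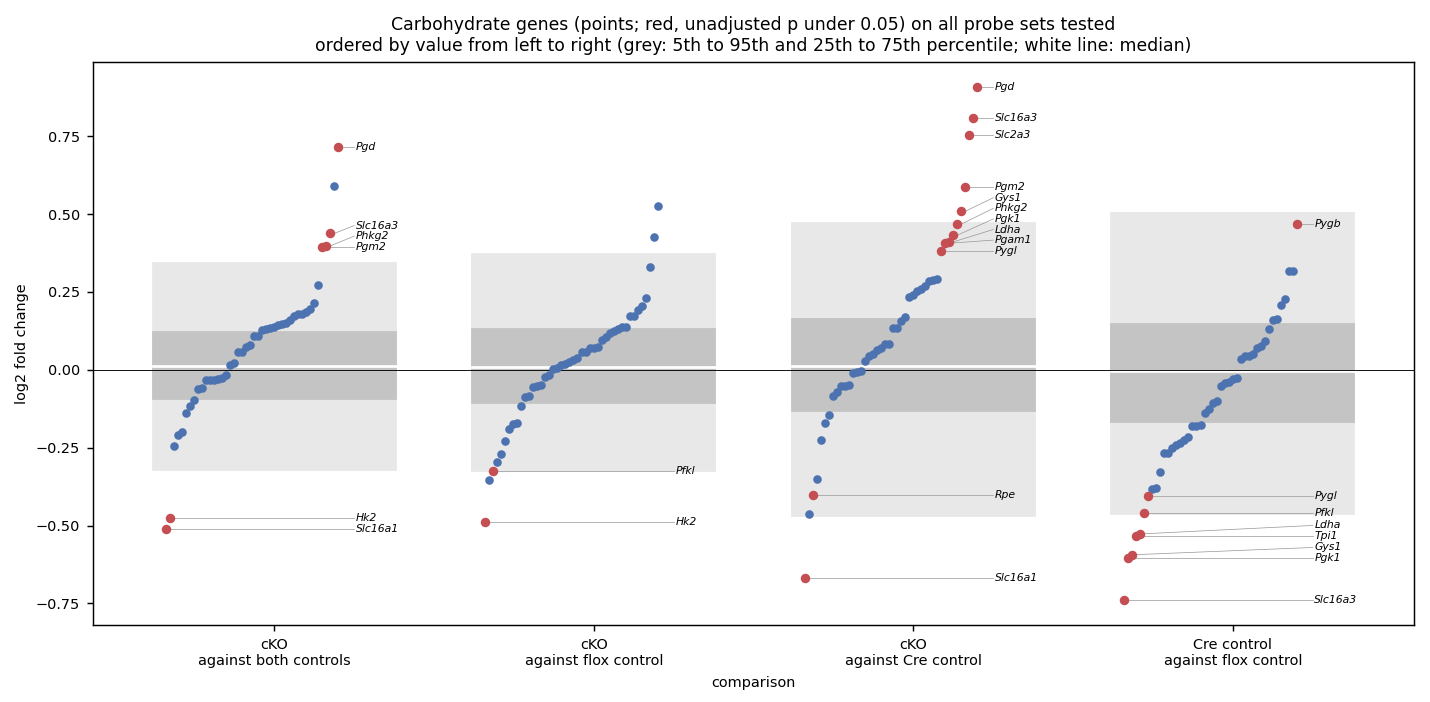
Log2 fold change (y axis) of the 44 genes in each of the 4 comparisons (x axis), ordered by value, over grey bands for the 5th to 95th and 25th to 75th percentiles of all probe sets tested. Red points, with names, had an unadjusted p under 0.05 and number 6, 2, 12 and 8 from left to right.

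Mean levels of some lists of cell markers lay apart between the same groups. By limma no single marker tested passed adjusted p 0.05 in any comparison, so these too are values and not calls. Of 9 T and NK cell markers tested between the controls, 8 read higher in the Cre control and 1 lower (-0.48). The mean level of 11 T and NK cell markers ran from 6.04 to 6.26 in flox control pools, 6.31 to 6.50 in cKO pools and 6.55 to 6.71 in Cre control pools, with Cd4 and Klrb1c dim on every array. That of 14 neutrophil markers was 12.10 to 12.24, 11.96 to 12.16 and 11.87 to 11.90 in the same order, so the Cre controls were lowest. They were lowest too for Pgk1, Ldha, Slc16a3, Gys1, Pygl, Pgm2 and Pgam1 among others, but highest for Rpe. Macrophage and monocyte markers averaged 8.38 to 8.74, 8.57 to 8.68 and 8.80 to 8.81 over 14 genes, with Cd163 dim, and dendritic cell and class II genes 8.04 to 8.29, 8.28 to 8.57 and 8.32 to 8.38 over 8. Eosinophil markers overlapped between groups (6.33 to 6.70, 6.59 to 7.18 and 6.66 to 7.31 over 5 genes, Epx dim), as did fibroblast markers (6.02 to 6.83, 5.86 to 6.86 and 5.72 to 6.73 over 6 genes, Pdgfra and Lum dim). B cell, mast cell and basophil, and erythroid markers averaged below 5.17 on every array. The part of these differences in the values above was not tested, and in pooled cells fewer cells of a type and less RNA per cell cannot be told apart.

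Of 65 further genes of these pathways, 60 were measured and 42 tested, and by limma none passed in any comparison. Against both controls 16 lay above 0 and 26 below (median -0.05), and 2 of 42, or 4.76%, had an unadjusted p under 0.05 beside the 9.52% above. Prpsap2, a regulatory protein of phosphoribosyl pyrophosphate synthetase, read 0.31 (SE 0.11, adjusted p = 0.415) and Slc2a6, the lysosomal hexose transporter GLUT6, -0.39 (SE 0.14, adjusted p = 0.43). Next by p came Emb, a partner protein of lactate transporters (0.24, SE 0.11), and the pyruvate dehydrogenase kinase Pdk3 (-0.56, SE 0.28).

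Against the flox control 3 of the 42, or 7.14% beside 8.26% of all probe sets, had an unadjusted p under 0.05, each lower in the cKO. They were Fbp1, an enzyme of gluconeogenesis (-0.44, SE 0.12, adjusted p = 0.37), the mitochondrial pyruvate carrier subunit Mpc1 (-0.40, SE 0.15) and Slc2a6 (-0.40, SE 0.15), followed by Prpsap2 (0.23, SE 0.12). Against the Cre control 3 did, or 7.14% beside 13.5% of all, each higher, namely the ADP-dependent glucokinase Adpgk (0.58, SE 0.15, adjusted p = 0.184), Prpsap2 (0.39, SE 0.13) and Fbp1 (0.31, SE 0.13), with Slc2a6 next (-0.37, SE 0.17). Between the controls 4 did, or 9.52% beside 14.7% of all, each lower in the Cre control: Fbp1 (-0.75, SE 0.13, adjusted p = 0.0506), Adpgk (-0.68, SE 0.15, adjusted p = 0.1), Mpc1 (-0.38, SE 0.17) and Bsg, the chaperone of the lactate transporters (-0.40, SE 0.18). Fbp1 was dim in the Cre control pools (5.19 and 5.12) and in cKO replicate 1 (5.36). It entered the test through the other 5 arrays. The Mpc1 probe set used is numbered among genes of chromosome 12, while Mpc1 lies on chromosome 17, and the Mpc1 probe set numbered among genes of chromosome 17 gave -0.28 (SE 0.10) against the flox control and -0.22 (SE 0.12) between the controls. Bsg and Slc16a3 both read lower in the Cre control than in the flox control, and neither difference passed.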

How the data were processed

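RNA of 8 pools was hybridized to Affymetrix Mouse Gene 2.0 ST arrays, 1 per pool. The authors deposited log2 intensities made by background subtraction and Robust Multiarray Analysis (RMA) in Expression Console, per the design text (version not given in the sources used here). RNA isolation and labelling kits differ between the design text and the protocols. Groups follow the genotype labels. The design text counts 3 pools per genotype, of which 2 Cre control pools were analysed here. Among 34472 probe sets 23521 had 1 symbol, 1814 several and 9137 none, and matching gene identifiers to RefSeq (GRCm38.p6) changed no symbol.

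The 14002 single-symbol probe sets above the median of all values on at least 2 arrays entered 1 linear model of all 3 groups, run with limma 3.58.1 (R 4.3.3) with 5 residual and 4.69 prior degrees of freedom. Both controls means the mean of the control group means. Tests were two-sided, with Benjamini-Hochberg adjustment over all probe sets. Errors are standard errors (SE). P-values set a difference against the spread between pools, estimated over all 3 groups together and drawn towards the spread of all probe sets. The fit was also run on simulated data, with shifts of 1 or 2 log2 units planted in noise drawn independently for each probe set. Those shifts exceed every difference of the carbohydrate genes in the main fit. The simulation therefore cannot show how well differences of their size are found. The labels give no batch. Members and lists were chosen with earlier results of these data known. Values on every array are given for genes with an unadjusted p under 0.05 in any comparison and for those at regulated or branching steps, and further pathway genes are the 4 with the smallest p in each comparison. Second probe sets of Pgam1 and Mpc1 were set beside the first after seeing the data. Protein sequences were not used here.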

Additional observations from a re-analysis of the deposited data

How the results depend on the processing

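Each count was recomputed under other filters, scalings, variance models and sets of arrays. Probe sets past the threshold in the cKO against both controls moved from 1, which reads Arf6, to 13 with array weights. The count was 0, so that Arf6 did not pass either, without flox control replicate 1 and cKO replicate 1. These are the 2 pools that differ in Xist or Eif2s3y. For the cKO against the flox control 6 became 12 with array weights, 0 in a fit of only the groups compared and 0 without those 2 pools. Against the Cre control 10 became 5 with no filter, 3 above the median in every array, 145 with array weights, 5 with only the groups compared and 4 without the 2 pools. Between the controls 68 became 819, 131 and 17 with array weights, only the groups compared and without the 2 pools. Leaving out each pool in turn gave 0 to 31, 0 to 10, 0 to 68 and 0 to 235 probe sets in these 4 comparisons.

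Carbohydrate genes past the threshold stayed at 0 in the 3 comparisons of the cKO under every alternative run. Between the controls 0 became 4 with array weights, namely Pgk1 (-0.65, adjusted p = 0.0186), Slc16a3 (-0.83, 0.0262), Gys1 (-0.66, 0.0255) and Pygl (-0.47, 0.0402). The cause was not tested. Counts of these genes at an unadjusted p under 0.05 were 1 to 10, 0 to 5, 4 to 15 and 4 to 10 when each pool was left out. Against the flox control 2 became 0 with quantile scaling, 1 with median-centred arrays, 1 with a variance trend, 5 with array weights and 1 with only the groups compared. The median over the genes when each pool was left out was 0.04 to 0.14 against both controls, -0.03 to 0.07 against the flox control, 0.083 to 0.18 against the Cre control and -0.16 to -0.10 between the controls. Of 3288 recomputed fold changes 155 changed sign, 0 of them among the 28 with an unadjusted p under 0.05. Many of the 3288 could not change sign. A fold change stays as it was under another filter, a variance trend or a fit of only the groups compared. It also stays without a pool from outside the comparison. The 28 were picked by their p, so their signs were unlikely to turn and are no measure of robustness. A fit that left 1 Cre control assumed that it varies like the other groups. No paired analysis was possible because the labels give no replicate numbers shared between groups.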
